A study of Rattus norvegicus with 24 samples.

Results

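The difference between 2 rat strains was compared between the adrenal gland and a sympathetic ganglion of the neck, the superior cervical ganglion. The strains were the spontaneously hypertensive rat (SHR), which develops high blood pressure by inheritance, and the Wistar-Kyoto rat (WKY), its normotensive control strain. The groups were SHR adrenal glands, WKY adrenal glands, SHR ganglia and WKY ganglia, all from rats 24 weeks old, with 4 RNA sequencing libraries in each group and 16 libraries in all. The question was which genes differ between the strains by another amount, or in another direction, in the adrenal gland than in the ganglion. The measure was the interaction, which is SHR minus WKY in the adrenal gland minus SHR minus WKY in the ganglion, on the log2(FPKM + 1) scale. FPKM is the number of fragments scaled to transcript length and to the fragments of the library. A gene entered the comparison where 4 or more of the 8 libraries had an FPKM of 1 or above, in each of the 2 tissues, which held for 11552 of the 20506 genes with values. A gene was called where the adjusted p of limma was under 0.05 over all 11552 genes, and "higher" means that the strain difference was the more positive one in the adrenal gland.

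Both tissues hold cells of the sympathetic system. The adrenal medulla is made of chromaffin cells, which arise from the neural crest like sympathetic neurons, make adrenaline and noradrenaline and release them into the blood, and it lies inside the cortex, which makes steroid hormones from cholesterol. The superior cervical ganglion is a cluster of sympathetic neurons wrapped by satellite glia, whose axons release noradrenaline in the head, neck and heart. Both tissues express the enzymes of catecholamine synthesis, and both were measured as bulk tissue, which also holds vessels, capsule and connective tissue.

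The summed FPKM per library was 493051 to 503529 in SHR and 502020 to 517693 in WKY adrenal glands, and 455530 to 465993 in SHR and 458567 to 464427 in WKY ganglia. The deposited values hold no read counts, so the depth is unknown and the precision of a value rests on the spread of 4 libraries. The median SD over genes on the log2 scale was 0.125 in SHR and 0.112 in WKY adrenal glands, and 0.0858 in SHR and 0.0815 in WKY ganglia. Markers of each tissue were in place. The adrenal cortex markers summed to 43950 to 47700 FPKM in SHR and 42920 to 44790 FPKM in WKY adrenal glands, against 166 to 174 FPKM in SHR and 154 to 167 FPKM in WKY ganglia. The neuronal markers summed to 200 to 249 FPKM in SHR and 261 to 298 FPKM in WKY adrenal glands, against 15620 to 16030 FPKM in SHR and 15050 to 16160 FPKM in WKY ganglia. The library of SHR adrenal gland replicate 3 stood apart from the other 3 of its group in immediate early and cholesterol genes, and that of SHR adrenal gland replicate 2 in interferon genes. Calls of these lists, and some but not all of the genes described from them, are therefore also given without the library concerned. The labels do not say that libraries came from separate rats, and p-values reflect only how far these libraries spread, which may be technical. They do not give the time or the order of collection either, so these cannot be told apart from strain.

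The strain difference differed between the tissues in 3638 of 11552 genes, which is 31.5%. It was called higher in 1336 genes (11.6%) and lower in 2302 genes (19.9%), and 470 of the called genes differed by at least 1 log2 unit. Most of these genes differed between the strains in the adrenal gland and had no call in the ganglion: 3129 of 3638, or 86.0%, of which 1171 were higher and 1958 lower in SHR adrenal glands. Another 113 genes had a strain call in the ganglion only, 128 were called with opposite signs in the 2 tissues, 77 had the same sign and a larger difference in the adrenal gland, 25 had the same sign and a larger difference in the ganglion, and 166 had no strain call in either tissue. On the same 11552 genes, 5683 (49.2%) differed between the strains in the adrenal gland and 666 (5.77%) in the ganglion. One spread per gene was fitted for both tissues, and with each tissue fitted alone the counts were 4699 in the adrenal gland and 1095 in the ganglion. Of the 11552 genes, 130 passed the filter in a tissue through libraries of 1 strain alone, 91 of them with an interaction call, and such a gene had to differ between the strains there. The median size of the strain difference was 0.207 log2 units in the adrenal gland and 0.077 in the ganglion, with a median standard error (SE) of 0.083 in each. Across genes the 2 strain differences had a Pearson correlation of 0.272 and the same sign in 54.2% of genes, which describes these libraries, since genes are not independent replicates. The share of higher calls was 36.7% of all calls on the deposited scale, 45.7% after median-of-ratios scaling and 49.2% after quantile normalization, so the excess of lower calls depended on the scaling.

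**Figure D1:**
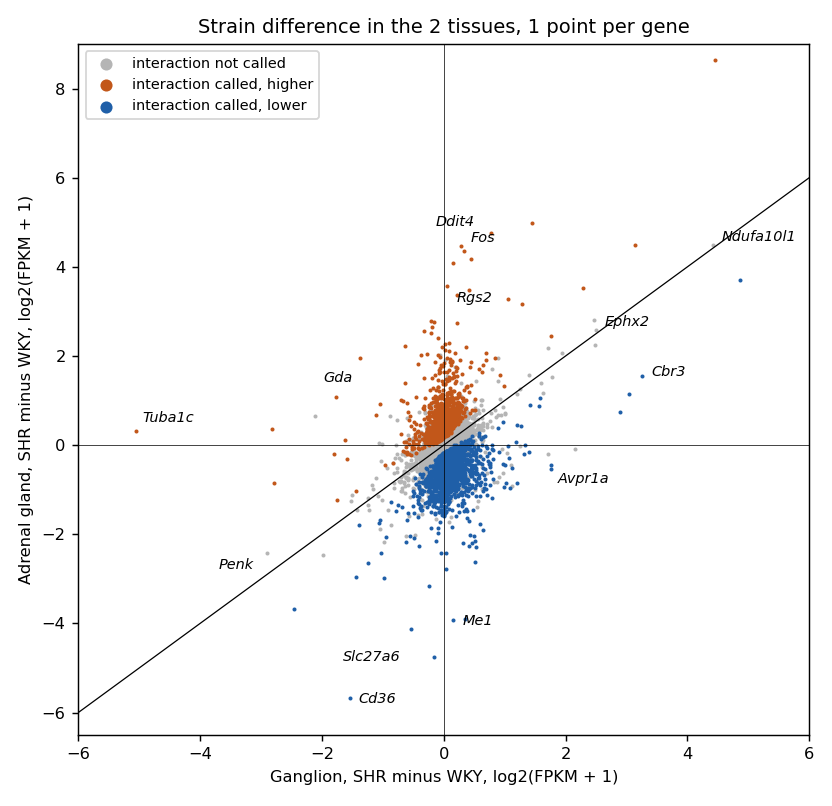
Strain difference (SHR minus WKY, log2(FPKM + 1)) in the adrenal gland (vertical axis) against that in the ganglion (horizontal axis), 1 point per gene for 11552 genes, with colours for the interaction call. Points far from the diagonal differ between the tissues. The called genes run along the vertical axis more than the horizontal one, since 3129 of 3638 had a strain call in the adrenal gland alone.

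Gene lists differed in direction. They were chosen with earlier results of these data known, so their order is a description. Of 28 lists of pathways and cell type markers, the immediate early genes had the highest share called higher, 20 of 31, against 11.6% of all genes. The catecholamine genes had the highest share called lower among lists with at least 5 tested members, 16 of 18, against 19.9% of all genes. Neuronal, secretory granule, matrix, leukocyte, interferon and ribosomal protein lists also had more lower calls than the share over all genes. Schwann and satellite glia and the cell cycle list had as many calls in each direction, and in every other list the direction with more calls was the same under median-of-ratios scaling and under quantile normalization.

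**Figure D2:**
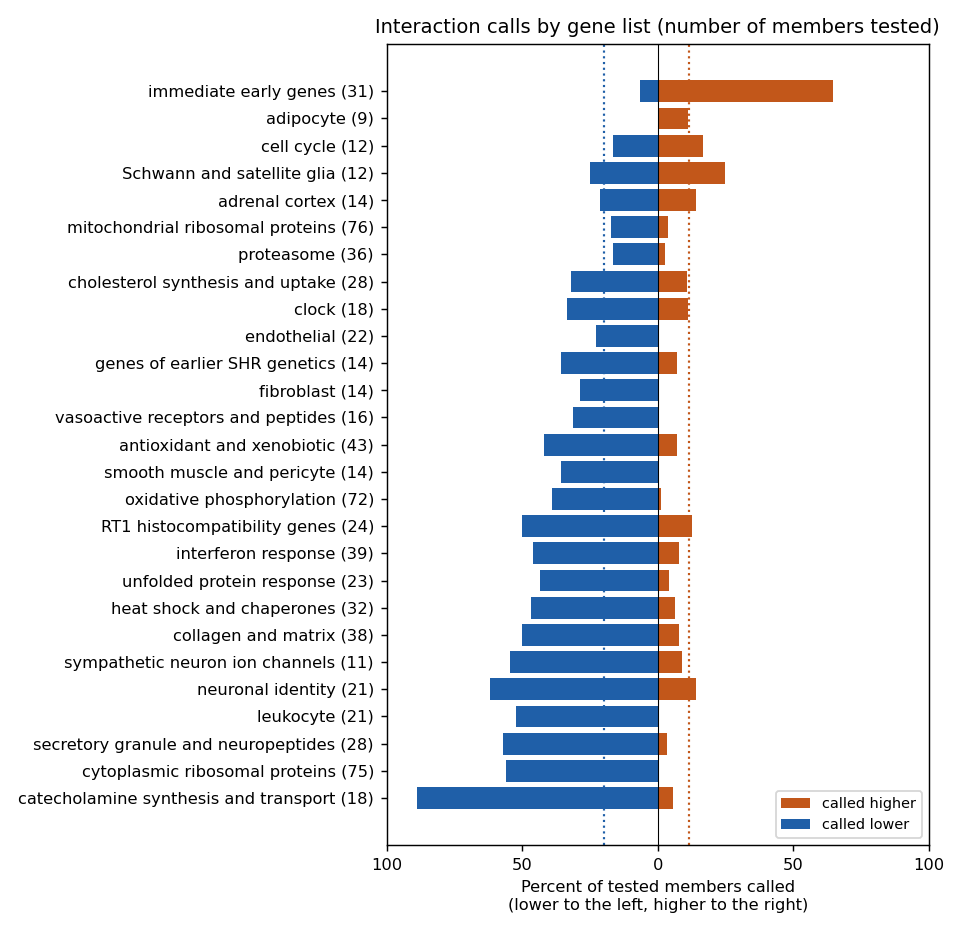
Percent of the tested members of each gene list called lower (left, blue) and higher (right, orange) in the interaction, with the number of members tested in brackets, for lists with at least 5 tested members. Dotted lines mark the shares over all genes tested, 19.9% lower and 11.6% higher. The immediate early genes reach farthest to the right and the catecholamine genes farthest to the left.

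Immediate early genes are transcribed within minutes of a stimulus, such as calcium entry, a hormone or a growth factor, with no need for new protein, and many encode transcription factors or regulators that shut the signal off. In these data they were higher in SHR than in WKY adrenal glands and had no strain call in the ganglion. Of 31 tested members, 20 were called higher in the interaction and 2 lower, against 11.6% and 19.9% of all genes. The median interaction was 1.42 against -0.05 over all genes. In SHR adrenal glands 23 were higher and 2 lower, against 20.4% and 28.7% of all genes. None of the 31 had a strain call in the ganglion, where 5.77% of all genes had one.

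Fos had 68.3, 89.3, 18.4 and 79.8 FPKM in SHR and 1.83, 1.04, 1.58 and 1.8 FPKM in WKY adrenal glands, and 2.92, 3.45, 2.06 and 2.85 FPKM in SHR and 2.85, 1.24, 1.63 and 3.06 FPKM in WKY ganglia. Fos is a subunit of the transcription factor AP-1. Every SHR adrenal library lay above every WKY adrenal library, and the ganglion groups overlapped. Its interaction was 4.17 ± 0.54 (SE; adjusted p = 7.5e-05), with a 95% interval of 3.01 to 5.33.

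Junb had 612, 703, 207 and 488 FPKM in SHR and 24.96, 23.3, 34.5 and 22.3 FPKM in WKY adrenal glands, and 12.3, 12.6, 11.6 and 12.1 FPKM in SHR and 12.96, 9.31, 10.1 and 11.6 FPKM in WKY ganglia. Junb, another AP-1 subunit, showed no overlap between the adrenal groups and overlap between the ganglion groups, with an interaction of 3.95 ± 0.40 (adjusted p = 1.1e-05). Nr4a1 had 467, 583, 168 and 358 FPKM in SHR and 12.6, 22.7, 20.8 and 21.01 FPKM in WKY adrenal glands, and 19.1, 15.1, 16.2 and 15.9 FPKM in SHR and 13.2, 9.88, 10.2 and 15.1 FPKM in WKY ganglia. Nr4a1, an orphan nuclear receptor that also acts on steroid synthesis genes in adrenal cells, had an interaction of 3.74 ± 0.43. Its relative Nr4a2 had an interaction of 3.06 ± 0.59, with 65.1, 87.7, 11.5 and 47.6 FPKM in SHR against 2.83, 2.84, 2.84 and 3.02 FPKM in WKY adrenal glands. In both receptors the lowest SHR adrenal value was that of replicate 3, and it was still above every WKY adrenal value.

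Sik1 had 108, 119.6, 30.4 and 76.8 FPKM in SHR and 3.11, 2.4, 3.75 and 1.83 FPKM in WKY adrenal glands, and 2.21, 1.76, 2.1 and 1.64 FPKM in SHR and 1.71, 1.02, 1.07 and 1.59 FPKM in WKY ganglia. Sik1 encodes a salt-inducible kinase that restrains cAMP-driven transcription, and its interaction was 4.02 ± 0.45. Gadd45g, a growth arrest gene, had 308, 314, 179.7 and 299 FPKM in SHR against 49.6, 39.3, 26.7 and 60.3 FPKM in WKY adrenal glands and 3.97 to 5.07 FPKM in SHR against 4.38 to 6.48 FPKM in WKY ganglia, with an interaction of 2.83 ± 0.31. Ier2 had 81.2, 84.2, 47.04 and 74.7 FPKM in SHR against 18.6, 20.3, 19.6 and 20.8 FPKM in WKY adrenal glands and an interaction of 1.78 ± 0.22. These 3 genes did not overlap between the adrenal groups either. Egr1, a zinc finger factor, had 18.6, 30.5, 18.4 and 32.3 FPKM in SHR against 7.57, 5.8, 10.3 and 3.67 FPKM in WKY adrenal glands and an interaction of 1.56 ± 0.49 (adjusted p = 0.026). This call did not hold when any 1 of 5 libraries was left out, with adjusted p of 0.051 to 0.054: WKY adrenal gland replicate 4, SHR adrenal gland replicate 4, WKY ganglion replicates 1 and 4, and SHR ganglion replicate 3.

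The 2 members called lower were Ier5 and Cebpb, named here after their values were seen, with interactions of -1.43 and -1.09. The call of Cebpb held without SHR adrenal gland replicate 1 or 2 or without WKY or SHR ganglion replicate 2, and was lost without any one of the other 12 libraries, with adjusted p of 0.052 to 0.081, and after median-of-ratios scaling, at 0.056. Atf3, a stress-responsive factor, was not called, with an interaction of 0.65 ± 0.29 (adjusted p = 0.095), and was called without SHR adrenal gland replicate 3, with an adjusted p of 0.018. Per1, an immediate early gene that is also a clock gene, was not called (0.56 ± 0.38, adjusted p = 0.29): it had 76.1, 71.7, 33.9 and 55.3 FPKM in SHR against 18.3, 22.1, 24.8 and 16.9 FPKM in WKY adrenal glands, and 16.6, 9.55, 11.1 and 10.7 FPKM in SHR against 6.79, 4.06, 4.45 and 9.56 FPKM in WKY ganglia.

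The mean of the list on the log2 scale was 4.70 in SHR adrenal gland replicate 3 and 5.42 to 5.71 in the other 3 SHR adrenal libraries, against 3.74 to 3.88 in WKY adrenal libraries. It was 2.82 to 2.93 in SHR ganglia and 2.52 to 3.02 in WKY ganglia. Without replicate 3 of SHR adrenal gland, 22 members were called higher and 1 lower. The interactions were then 4.68 for Fos, 4.33 for Junb, 4.1 for Nr4a1, 3.66 for Nr4a2, 4.44 for Sik1, 3.03 for Gadd45g and 1.96 for Ier2, all called.

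The start regions of the 5 list members with the smallest adjusted p that have an entry in RefSeq's promoter table are shown because cAMP and calcium act on many immediate early genes through the cAMP response element TGACGTCA and its core TGACG. Each runs from 250 bases before to 50 after the annotated start, on assembly GRCr8, 5′ to 3′ on the gene's strand, and capitals mark the letters TGACGTCA or TGACG on either strand, where TGACG on the other strand reads CGTCA. Junb lies at chr19:40080876-40081175, plus strand, Gadd45g at chr17:13530302-13530601, minus strand, Sik1 at chr20:9958597-9958896, minus strand, Ier2 at chr19:40399123-40399422, plus strand and Nr4a1 at chr7:134259888-134260187, plus strand.
Junb: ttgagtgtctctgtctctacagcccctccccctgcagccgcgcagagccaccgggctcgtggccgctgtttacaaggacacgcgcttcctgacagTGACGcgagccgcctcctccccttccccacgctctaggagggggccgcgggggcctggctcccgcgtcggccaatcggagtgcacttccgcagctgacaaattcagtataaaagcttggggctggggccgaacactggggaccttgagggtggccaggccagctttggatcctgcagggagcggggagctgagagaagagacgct
Gadd45g: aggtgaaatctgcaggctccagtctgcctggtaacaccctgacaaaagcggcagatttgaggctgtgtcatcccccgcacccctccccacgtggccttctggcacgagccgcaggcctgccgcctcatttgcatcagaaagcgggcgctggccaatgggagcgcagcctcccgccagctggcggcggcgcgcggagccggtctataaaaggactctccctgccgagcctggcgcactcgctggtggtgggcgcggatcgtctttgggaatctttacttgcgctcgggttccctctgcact
Sik1: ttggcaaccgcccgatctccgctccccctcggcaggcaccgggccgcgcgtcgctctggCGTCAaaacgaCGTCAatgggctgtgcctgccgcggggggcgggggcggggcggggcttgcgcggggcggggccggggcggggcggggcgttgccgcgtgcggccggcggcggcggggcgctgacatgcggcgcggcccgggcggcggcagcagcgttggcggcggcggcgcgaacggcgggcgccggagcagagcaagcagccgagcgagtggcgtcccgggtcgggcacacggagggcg
Ier2: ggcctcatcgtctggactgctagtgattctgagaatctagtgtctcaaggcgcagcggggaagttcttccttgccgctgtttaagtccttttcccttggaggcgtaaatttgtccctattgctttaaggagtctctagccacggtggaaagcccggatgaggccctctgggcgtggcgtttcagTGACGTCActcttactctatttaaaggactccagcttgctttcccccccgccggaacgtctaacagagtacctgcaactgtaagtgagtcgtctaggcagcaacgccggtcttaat
Nr4a1: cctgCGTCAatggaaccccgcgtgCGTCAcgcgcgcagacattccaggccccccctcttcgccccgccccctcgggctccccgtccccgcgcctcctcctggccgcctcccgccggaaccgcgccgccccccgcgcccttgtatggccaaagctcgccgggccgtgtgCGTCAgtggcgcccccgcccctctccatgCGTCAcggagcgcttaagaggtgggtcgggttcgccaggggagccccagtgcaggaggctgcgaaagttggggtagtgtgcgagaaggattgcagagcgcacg
TGACGTCA was found in Ier2 alone of the 5. TGACG was found once in Junb, 2 times in Sik1, 4 times in Nr4a1 and 2 times in Ier2, where both are part of TGACGTCA and overlap, and not in Gadd45g. Over the 9202 tested genes with an entry, TGACGTCA was in 3.34% and TGACG in 33.5%, and over the 1081 genes called higher they were in 3.79% and 33.7%. Of the 31 tested immediate early genes 22 have an entry, of which 5 held TGACGTCA and 15 TGACG. With so many members lacking an entry, these counts give no share for the list. A match is a description of these letters and no evidence that a factor binds there.

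**Figure D3:**
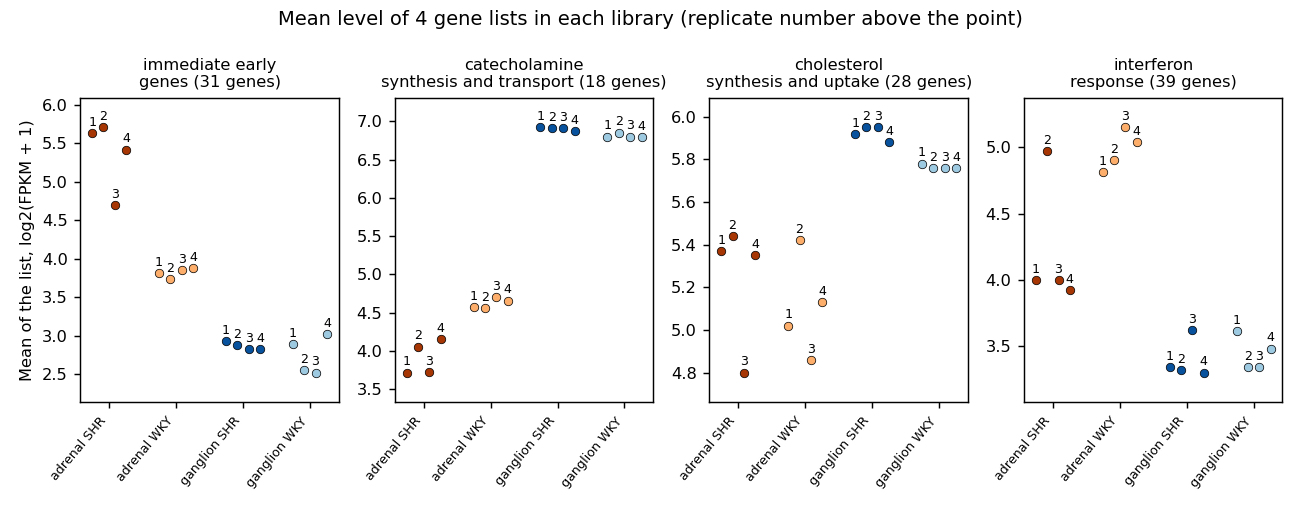
Mean log2(FPKM + 1) of 4 gene lists in each of the 16 libraries, with the replicate number above each point. SHR adrenal gland replicate 3 has the lowest immediate early mean of its group, 4.70, and the lowest cholesterol mean, 4.80. SHR adrenal gland replicate 2 has an interferon mean of 4.97, within the range of WKY adrenal glands, 4.81 to 5.15.

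Beyond the immediate early list, the largest positive interactions by the rule for named genes were those of Tuba1c, Ddit4, Rgs2, Impad1 and Dyrk3. Ddit4 had 396, 427, 163 and 360.5 FPKM in SHR and 16.9, 7.79, 9.76 and 9.88 FPKM in WKY adrenal glands, and 49.6, 33.99, 34.96 and 44.9 FPKM in SHR and 36.1, 18.5, 15.5 and 28.1 FPKM in WKY ganglia. Ddit4, an inhibitor of mTOR signalling that stress and glucocorticoids induce, had an interaction of 4.0 ± 0.46. Its SHR libraries lay above the WKY libraries in the adrenal gland without overlap, and overlapped in the ganglion. Rgs2 had 532, 506, 184 and 289.6 FPKM in SHR and 30.8, 35, 35.3 and 16.6 FPKM in WKY adrenal glands, and 9.45, 8.79, 9.23 and 8.65 FPKM in SHR and 9.91, 8.28, 7.74 and 8.68 FPKM in WKY ganglia. Rgs2, which ends signalling by the G proteins of angiotensin and other vasoactive receptors, had an interaction of 3.51 ± 0.42. Dyrk3, a kinase that acts on stress granules, had 24.2, 29.6, 6.08 and 19.1 FPKM in SHR against 0.53, 1.07, 0.36 and 1.24 FPKM in WKY adrenal glands, and 6.28, 6.04, 6.55 and 5.81 FPKM in SHR against 5.22, 4.68, 5.11 and 5.73 FPKM in WKY ganglia, with an interaction of 3.15 ± 0.47. All 3 kept adrenal groups apart and their lowest SHR adrenal value was that of replicate 3, without which the interactions were 4.31 for Ddit4, 3.81 for Rgs2 and 3.61 for Dyrk3.

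Tuba1c, an alpha-tubulin, reached its interaction of 5.37 ± 0.46 through the ganglion. It had 9.08, 2.61, 7.07 and 1.62 FPKM in SHR against 184, 159.5, 169 and 186 FPKM in WKY ganglia, and 103, 87.5, 105 and 104 FPKM in SHR against 80.5, 66.1, 91.9 and 84.8 FPKM in WKY adrenal glands. Its value is uncertain, because reads can be split between near-identical tubulin genes. Impad1, a Golgi nucleotide phosphatase, had 12.2, 31.6, 12.7 and 8.53 FPKM in SHR against 0.07, 5.62, 5.58 and 4.22 FPKM in WKY adrenal glands, and 0.71, 0.09, 7.58 and 7.15 FPKM in SHR against 6.97, 7.53, 9.4 and 7.52 FPKM in WKY ganglia. WKY adrenal gland replicate 1 and SHR ganglion replicates 1 and 2 lay under 1 FPKM, and the groups overlapped in the ganglion. The interaction of 3.35 ± 1.02 (adjusted p = 0.024) lost its call without number 2 of SHR in both tissues, where it was 2.44 with an adjusted p of 0.073. This call was also lost with a pseudocount of 0.1, at 0.052, and with the replicate number as a fixed block, at 0.075.

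The 10 largest negative interactions by the same rule were those of Slc27a6, Akr1c14, Cd36, Me1, Aox1, Fmo1, Tst, Il33, Hbb and Hba1. Me1 had 20.3, 19.6, 27.6 and 21.6 FPKM in SHR and 301, 384, 364 and 366 FPKM in WKY adrenal glands, and 101, 97.7, 96.6 and 88.9 FPKM in SHR and 83.4, 86.2, 87.5 and 87.8 FPKM in WKY ganglia. Me1, the cytosolic malic enzyme that supplies NADPH, had an interaction of -4.09 ± 0.13 (adjusted p = 2.4e-12). Cd36 had 3.03, 3.8, 6.23 and 3.8 FPKM in SHR and 271, 232, 292 and 251 FPKM in WKY adrenal glands, and 2.21, 1.62, 1.46 and 1.83 FPKM in SHR and 8.55, 4.69, 4.35 and 13.7 FPKM in WKY ganglia. Cd36, a fatty acid transporter and a gene of earlier SHR genetics, had an interaction of -4.14 ± 0.37, and its strain difference had the same sign in both tissues, -5.68 in the adrenal gland and -1.55 in the ganglion, both called. In Me1 the 4 SHR libraries lay under the 4 WKY libraries in the adrenal gland and above them in the ganglion, where the difference of 0.15 was not called, and in Cd36 they lay under them in both tissues.

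Slc27a6 had 0.8, 0.98, 0.67 and 0.73 FPKM in SHR and 41.4, 67.4, 42.4 and 41.1 FPKM in WKY adrenal glands, and 5.24, 6.84, 6.54 and 6.32 FPKM in SHR and 7.97, 8.33, 5.75 and 6.39 FPKM in WKY ganglia. Slc27a6, another fatty acid transport protein, had an interaction of -4.59 ± 0.20, and it passed the adrenal filter through WKY libraries alone. Akr1c14 had 2.35, 1.79, 3.76 and 2.71 FPKM in SHR and 56.2, 47.8, 50.2 and 57.4 FPKM in WKY adrenal glands, and 5.37, 5.23, 4.06 and 4.14 FPKM in SHR and 4.65, 2.73, 2.19 and 4.89 FPKM in WKY ganglia. Akr1c14, a hydroxysteroid dehydrogenase, had an interaction of -4.25 ± 0.27. Both genes kept the adrenal groups far apart and overlapped in the ganglion.

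Other enzymes followed the same order in the adrenal gland. Aox1, aldehyde oxidase, had 6.86, 6.17, 6.56 and 7.3 FPKM in SHR against 49.5, 46.7, 43.3 and 46.03 FPKM in WKY adrenal glands, and 2.78, 3.05, 2.03 and 2.91 FPKM in SHR against 2.35, 1.11, 1.2 and 1.83 FPKM in WKY ganglia, with strain differences of -2.62 and 0.51 that were both called and opposite in sign. Fmo1, a flavin monooxygenase, had 16.2, 15.02, 9.54 and 15.97 FPKM in SHR against 165, 130.4, 118 and 122 FPKM in WKY adrenal glands and an interaction of -2.92 ± 0.29. Tst, the mitochondrial sulfurtransferase rhodanese, had 60.6, 55.4, 56.1 and 51.5 FPKM in SHR against 260.2, 273, 281 and 286 FPKM in WKY adrenal glands, but 14.5, 11.1, 11.5 and 10.4 FPKM in SHR against 7.52, 7.79, 7.83 and 8.16 FPKM in WKY ganglia, so that its 2 strain differences were called with opposite signs, -2.28 and 0.53. Il33, an alarm cytokine, had 4.49, 5.45, 3.91 and 6.2 FPKM in SHR against 43.1, 24.2, 20.4 and 22.98 FPKM in WKY adrenal glands and an interaction of -2.67 ± 0.29. In the ganglion the Il33 values ran from 17.1 to 26.6 FPKM in SHR and from 11.1 to 16.4 FPKM in WKY, a difference of 0.46 that was not called.

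The globin genes Hbb and Hba1 had interactions of -2.66 ± 0.76 and -2.55 ± 0.85. Hbb had 27.8, 76.1, 53.7 and 98.99 FPKM in SHR and 296, 275, 252 and 233 FPKM in WKY adrenal glands, and 107, 166, 40.3 and 21.6 FPKM in SHR and 66.95, 40.2, 30.5 and 45.9 FPKM in WKY ganglia. The adrenal groups did not overlap and the ganglion libraries of SHR spread over a wide range. Both calls were weak, at adjusted p of 0.018 and 0.036, and that of Hba1 was lost when any of 11 single libraries was left out, with adjusted p of 0.053 to 0.074. These were all 4 WKY adrenal libraries, SHR adrenal gland replicates 1 and 3, WKY ganglion replicates 2, 3 and 4, and SHR ganglion replicates 1 and 2. With the replicate number as a fixed block, both Hbb and Hba1 lost their calls, at adjusted p of 0.063 and 0.098. Globin reads can be split between near-identical copies. The erythroid markers summed to 40.8 to 139 FPKM in SHR and 312 to 399 FPKM in WKY adrenal glands, and 32.1 to 234 FPKM in SHR and 40.7 to 93.7 FPKM in WKY ganglia; their part in other results was not tested.

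**Figure D4:**
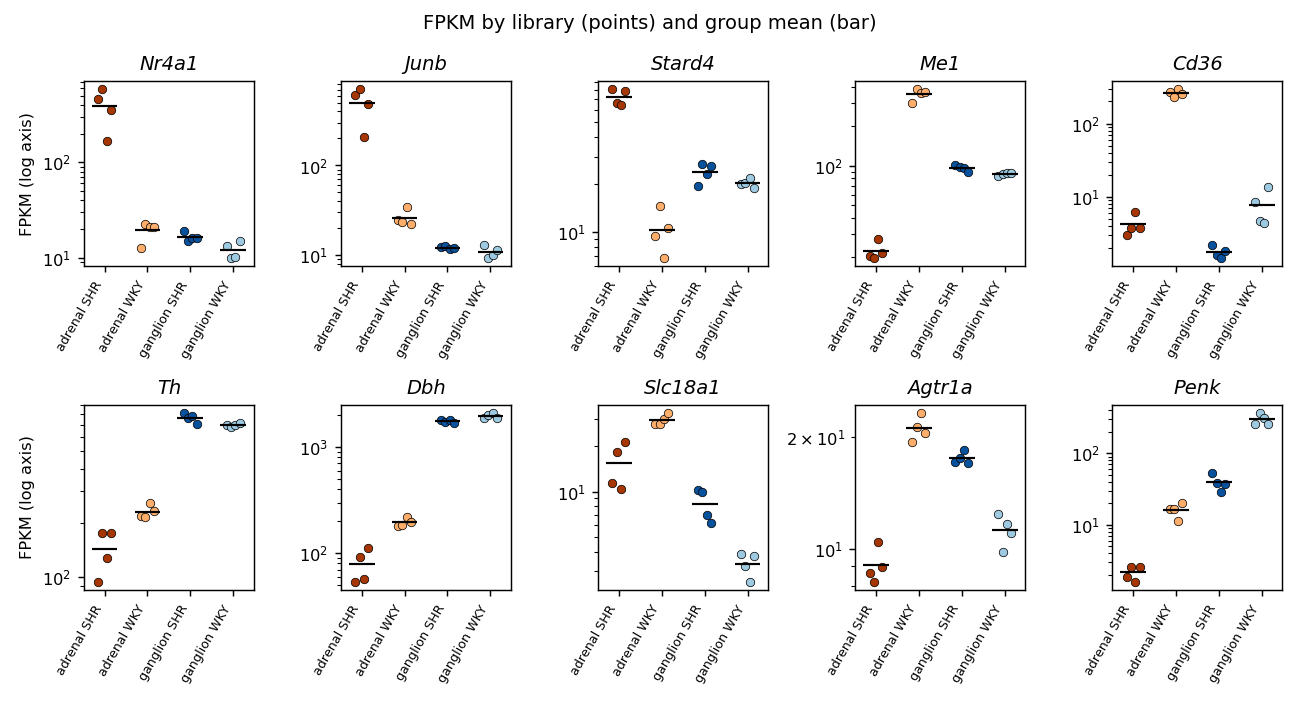
FPKM of 10 named genes by library (points, log axis) with the group mean as a bar, SHR and WKY adrenal glands on the left and SHR and WKY ganglia on the right of each panel. Nr4a1, Junb and Stard4 are higher and Me1, Cd36, Th and Dbh lower in SHR than in WKY adrenal glands. Slc18a1 and Agtr1a are lower in SHR adrenal glands but higher in SHR ganglia, and Penk is lower in SHR in both tissues.

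Genes of catecholamine synthesis, storage and breakdown were lower in SHR than in WKY adrenal glands while most had no strain call in the ganglion. Of 18 tested genes 16 were called lower in the interaction and 1, Spr, higher (19.9% and 11.6% of all genes), with a median interaction of -0.84. In the adrenal gland 15 were lower and 1 higher in SHR (28.7% and 20.4% of all genes), and in the ganglion 1 was lower and 3 were higher (2.17% and 3.59% of all genes). The list's 19 genes summed to 578 to 933 FPKM in SHR and 1212 to 1371 FPKM in WKY adrenal glands, and to 6277 to 6441 FPKM in SHR and 6494 to 7021 FPKM in WKY ganglia. In whole tissue, fewer cells of a type and less RNA per cell cannot be told apart.

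Th had 94.6, 175, 128 and 177 FPKM in SHR and 218, 216, 259 and 232 FPKM in WKY adrenal glands, and 810.2, 763, 779 and 706 FPKM in SHR and 693, 676, 693 and 719 FPKM in WKY ganglia. Th encodes tyrosine hydroxylase, the rate-limiting enzyme of catecholamine synthesis. Its adrenal groups did not overlap, and its interaction was -0.86 ± 0.21 (adjusted p = 0.0056). Dbh had 53.8, 92.9, 56.7 and 111 FPKM in SHR and 180.5, 185, 220.03 and 195 FPKM in WKY adrenal glands, and 1796, 1712, 1782 and 1696 FPKM in SHR and 1894, 1999, 2088 and 1892 FPKM in WKY ganglia. Dbh, which turns dopamine into noradrenaline inside the granule, had an interaction of -1.19 ± 0.25 (adjusted p = 0.0024), with no overlap in the adrenal gland.

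Ddc had 13.4, 21.9, 14.1 and 21.5 FPKM in SHR and 40.7, 41.02, 46.9 and 44.1 FPKM in WKY adrenal glands, and 315, 305, 297 and 298 FPKM in SHR and 296, 305, 304 and 309 FPKM in WKY ganglia. Ddc, the decarboxylase between the steps of Th and Dbh, had an interaction of -1.27 ± 0.17 and a ganglion difference of -0.00. Hand2, a transcription factor of sympathetic and chromaffin cells, averaged 9.9 FPKM in SHR and 21.7 in WKY adrenal glands, and 179 in SHR and 171 in WKY ganglia, with an interaction of -1.16 ± 0.19. Pnmt, which makes adrenaline, did not enter the test because the ganglion hardly expressed it: it had 129, 253, 134 and 287 FPKM in SHR against 326, 405, 375 and 364 FPKM in WKY adrenal glands, and at most 0.36 FPKM in any ganglion library.

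Granule and neuropeptide genes moved in the same direction. Of 28 tested, 16 were called lower and 1 higher in the interaction (19.9% and 11.6% of all genes), with a median of -0.60. In SHR adrenal glands 19 were lower and 4 higher (28.7% and 20.4% of all genes). Chga, the chromogranin that builds the dense core of the granule, had 359.6, 618, 399 and 633 FPKM in SHR against 765, 870.4, 872 and 894 FPKM in WKY adrenal glands, and 39.4, 36.5, 36.8 and 41.2 FPKM in SHR against 35.7, 34.5, 34.2 and 34.3 FPKM in WKY ganglia, with an interaction of -0.94 ± 0.20. The calcium sensor Syt4 averaged 2.48 FPKM in SHR and 7.62 in WKY adrenal glands, and 307 in SHR and 361 in WKY ganglia, with an interaction of -1.09 ± 0.18, and the granule protein Ptprn2 had an interaction of -0.85 ± 0.16. Its relative Ptprn went the other way. Ptprn had 53.5, 40.1, 90.7 and 77.95 FPKM in SHR and 13.2, 12.8, 14.6 and 15.8 FPKM in WKY adrenal glands, and 184, 186, 197 and 175 FPKM in SHR and 159, 161, 171 and 163 FPKM in WKY ganglia. The SHR adrenal values were all above the WKY adrenal values, the ganglion difference of 0.18 was not called, and the interaction was 1.9 ± 0.25 (adjusted p = 7.4e-05). Npy, the neuropeptide of sympathetic neurons, was not called: it had 8.32, 15.3, 19.6 and 29.1 FPKM in SHR against 20.6, 22.4, 14.9 and 19.96 FPKM in WKY adrenal glands, averaged 2303 ± 94.5 FPKM in SHR and 2144 ± 56.2 FPKM in WKY ganglia (SD, n = 4 each), and its interaction was -0.31 ± 0.35.

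Neuronal markers come at low levels in the adrenal gland beside the ganglion. Of 21 tested genes 13 were called lower and 3 higher, against 19.9% and 11.6% of all genes, with a median of -0.68. Gap43 had 0.47, 1.17, 0.38 and 1.09 FPKM in SHR and 3.67, 4.77, 3.73 and 3.65 FPKM in WKY adrenal glands, and 719, 694, 642 and 704 FPKM in SHR and 651, 657, 696 and 679 FPKM in WKY ganglia. Gap43, a growth cone protein, had an interaction of -1.54 ± 0.17, from a low adrenal level at which the pseudocount understates the change. Stmn2, a microtubule regulator of growing axons, averaged 3.67 FPKM in SHR and 8.57 in WKY adrenal glands, and 1313 in SHR and 1249 in WKY ganglia, with an interaction of -1.14 ± 0.18, and the neurofilament gene Nefl had an interaction of -0.66 ± 0.11. Tubb3, a neuronal beta-tubulin, was called higher. It had 49.3, 50.3, 40.2 and 44.7 FPKM in SHR against 25.7, 24.9, 24.1 and 29.2 FPKM in WKY adrenal glands and an interaction of 0.69 ± 0.09. Of 11 ion channel genes of sympathetic neurons, 6 were called lower and 1 higher, against 19.9% and 11.6% of all genes. The 4 with the smallest adjusted p were the calcium channel subunits Cacna1d (-0.95) and Cacna2d1 (-0.88), the sodium channel subunit Scn2b (-0.95) and the potassium channel subunit Kcnab2 (-0.74).

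Opposite strain differences were called in 128 genes, 1.11% of those tested: 28 higher in SHR adrenal glands and lower in SHR ganglia, and 100 lower in SHR adrenal glands and higher in SHR ganglia. The count was 195 with each tissue fitted alone, 71 among genes with a mean of at least 5 FPKM in each tissue, and 80 to 146 when single libraries were left out, and the lowest values were 80 without WKY ganglion replicate 3, 80 without SHR ganglion replicate 4 and 82 without WKY ganglion replicate 2. By the rule for named genes, 6 are described first.

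Gda had 41.2, 29.9, 39.9 and 38.1 FPKM in SHR and 22.7, 15.3, 16.5 and 14.8 FPKM in WKY adrenal glands, and 17.3, 35.6, 25.4 and 37.9 FPKM in SHR and 89.6, 111, 120.2 and 75.2 FPKM in WKY ganglia. Gda, guanine deaminase of purine breakdown, had strain differences of 1.07 in the adrenal gland and -1.77 in the ganglion, and neither tissue's groups overlapped. Slc18a1 had 11.3, 18.2, 10.4 and 21.2 FPKM in SHR and 27.9, 27.8, 29.97 and 32.6 FPKM in WKY adrenal glands, and 10.3, 9.86, 6.99 and 6.17 FPKM in SHR and 3.87, 3.24, 2.56 and 3.77 FPKM in WKY ganglia. Slc18a1 encodes the vesicular monoamine transporter typical of chromaffin cells, and its strain differences were -0.97 in the adrenal gland and 1.08 in the ganglion, again without overlap.

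Spon1 had 2.41, 2.67, 1.76 and 3.76 FPKM in SHR and 4.91, 5.8, 5.87 and 5.23 FPKM in WKY adrenal glands, and 4.13, 4.17, 3.97 and 3.86 FPKM in SHR and 1.14, 1.4, 1.12 and 1.09 FPKM in WKY ganglia. Spon1, the matrix protein F-spondin and a gene of earlier SHR genetics, had strain differences of -0.85 in the adrenal gland and 1.2 in the ganglion. Cpne9, a calcium-dependent membrane-binding protein, had 0.56, 0.94, 0.4 and 1.22 FPKM in SHR against 2.06, 2.41, 2.33 and 2.59 FPKM in WKY adrenal glands, and 6.94, 6.65, 7.56 and 7.97 FPKM in SHR against 3.5, 3.34, 2.63 and 3.26 FPKM in WKY ganglia. Arpp21, a phosphoprotein regulated by cAMP, had 1.3, 1.63, 1.81 and 1.44 FPKM in SHR against 4.15, 5.96, 6.68 and 2.96 FPKM in WKY adrenal glands, and 2.01, 2.4, 2.59 and 2.39 FPKM in SHR against 0.92, 1.09, 0.75 and 1 FPKM in WKY ganglia. In all 3 genes the SHR libraries lay under the WKY libraries in the adrenal gland and above them in the ganglion. Nudt17, a nudix hydrolase, went the other way, with 1.84, 1.23, 1.46 and 1.94 FPKM in SHR against 0.58, 0.4, 0.22 and 0.33 FPKM in WKY adrenal glands, and 0.76, 0.52, 0.45 and 0.9 FPKM in SHR against 2.82, 2.45, 1.56 and 2.92 FPKM in WKY ganglia. It passed the filter through SHR libraries alone in the adrenal gland and through WKY libraries alone in the ganglion, so the filter itself selects such a pattern and its values are a description.

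Agtr1a had 8.65, 8.19, 10.5 and 8.95 FPKM in SHR and 19.4, 21.3, 23.1 and 20.5 FPKM in WKY adrenal glands, and 17.1, 17.5, 18.4 and 17.01 FPKM in SHR and 12.4, 9.81, 11.7 and 11.1 FPKM in WKY ganglia. Agtr1a, the main angiotensin II receptor of the rat, had strain differences of -1.14 in the adrenal gland and 0.60 in the ganglion, with no overlap in either tissue and an interaction of -1.74 ± 0.11 (adjusted p = 2.9e-08). Avpr1a had 0.78, 0.5, 1.18 and 1.01 FPKM in SHR and 1.54, 1.83, 1.93 and 0.92 FPKM in WKY adrenal glands, and 8.89, 11.9, 9.05 and 9.8 FPKM in SHR and 2.83, 2.2, 1.8 and 2.01 FPKM in WKY ganglia. Avpr1a, a vasopressin receptor, had -0.45 and 1.77, and its adrenal groups overlapped at a low level. Of 16 tested vasoactive receptors, peptides and steroid receptors 5 were called lower and none higher, against 19.9% and 11.6% of all genes, and the other named ones were the glucocorticoid receptor Nr3c1 (-0.60) and the angiotensin-converting enzyme Ace (-0.51), which lost its call under quantile normalization, with an adjusted p of 0.072. The chromogranin Chgb was opposite too, with 316, 512, 419 and 477 FPKM in SHR against 493, 553, 557 and 587 FPKM in WKY adrenal glands, and 158, 153, 137 and 157 FPKM in SHR against 86.4, 89.8, 96.2 and 91.9 FPKM in WKY ganglia. Its adrenal groups overlapped and its ganglion groups did not.

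**Figure D5:**
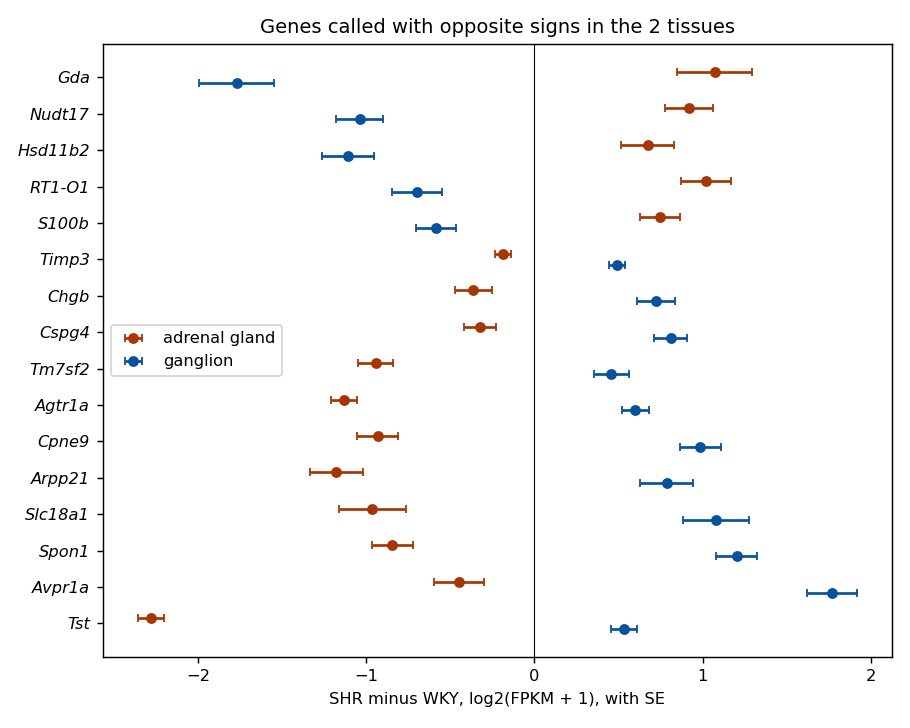
Strain difference (SHR minus WKY, log2(FPKM + 1), with SE) in the adrenal gland and in the ganglion for 16 of the named genes called with opposite signs. Gda, Nudt17, Hsd11b2, S100b and RT1-O1 are higher in SHR adrenal glands and lower in SHR ganglia, and the other 11 are lower in SHR adrenal glands and higher in SHR ganglia.

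The adrenal cortex markers had no common direction, with 2 called higher and 3 lower of 14 tested and a median of 0.03. These counts are near the shares over all genes, 11.6% higher and 19.9% lower. Since they are expressed at low levels in the ganglion, the filter kept only those with at least 1 FPKM there. Hsd11b2 had 137, 168, 111 and 133 FPKM in SHR and 81.6, 87.96, 78.1 and 92.7 FPKM in WKY adrenal glands, and 2.62, 2.81, 2.37 and 2.65 FPKM in SHR and 5.2, 6.58, 10.5 and 5.78 FPKM in WKY ganglia. Hsd11b2, which inactivates glucocorticoids, was opposite, with strain differences of 0.67 in the adrenal gland and -1.11 in the ganglion and no overlap in either. Fdx1, the electron donor of the mitochondrial steroid enzymes, had 2051, 2412, 2057 and 2185 FPKM in SHR against 3424, 3564, 3427 and 3639 FPKM in WKY adrenal glands and an interaction of -0.71 ± 0.10. Mrap, the partner of the corticotropin receptor, had 345, 379, 181 and 336 FPKM in SHR against 401, 440.3, 401 and 492 FPKM in WKY adrenal glands and an interaction of -0.90 ± 0.29 (adjusted p = 0.027), a call that was lost, with adjusted p of 0.051 to 0.054, without WKY adrenal gland replicate 4, WKY ganglion replicate 1 or 3, or SHR ganglion replicate 1. Star, which carries cholesterol into the mitochondrion, had 8001, 7516, 7267 and 7404 FPKM in SHR against 5533, 6038, 4505 and 4096 FPKM in WKY adrenal glands. It was higher in SHR adrenal glands (0.60, adjusted p = 0.0036), but at 0.67 to 2.1 FPKM in the ganglion its interaction of 0.36 ± 0.21 was not called.

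Cholesterol synthesis and uptake genes split. Of 28 tested, 3 were called higher, Stard4 among them, and 9 lower, against 11.6% and 19.9% of all genes. The lower calls were 6 after median-of-ratios scaling, and 4 were called higher and 8 lower without SHR adrenal gland replicate 3. Stard4 had 80.8, 65.99, 64.03 and 78.4 FPKM in SHR and 9.31, 14.5, 6.78 and 10.5 FPKM in WKY adrenal glands, and 19.6, 26.9, 23.3 and 26.2 FPKM in SHR and 20.1, 20.5, 21.96 and 19.1 FPKM in WKY ganglia. Stard4, a cytosolic cholesterol carrier, had an interaction of 2.52 ± 0.23, or 2.58 without that library, with no overlap in the adrenal gland.

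Lower calls included the later enzymes Tm7sf2 (-1.4) and Ebp (-0.70) and the lysosomal carrier Npc2 (-0.45). Tm7sf2 was opposite in sign, lower in SHR adrenal glands (-0.95) and higher in SHR ganglia (0.46). The mean of the list was 4.80 in SHR adrenal gland replicate 3, 5.35 to 5.44 in the other 3 SHR adrenal libraries and 4.86 to 5.42 in WKY adrenal libraries.

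Genes of the respiratory chain and of ribosomes were lower in SHR adrenal glands by small amounts. Of 72 oxidative phosphorylation genes 28 were called lower in the interaction and 1 higher, against 19.9% and 11.6% of all genes, with a median of -0.16. The lower calls were 15 after median-of-ratios scaling, when 1923 of all 11552 genes were called lower. They were 19 after quantile normalization, when 1817 of all genes were, so the excess of this list depended on the scaling. Atp5h had 287, 293, 282 and 292 FPKM in SHR and 364, 426, 401 and 431 FPKM in WKY adrenal glands, and 269, 243, 249.8 and 251 FPKM in SHR and 250.04, 244, 247 and 258 FPKM in WKY ganglia. Atp5h, of ATP synthase, showed no overlap between the adrenal groups and had an interaction of -0.51 ± 0.07, and Sdhb, of succinate dehydrogenase, had -0.41. Ndufb8 was lower in SHR in both tissues, by -0.64 in the adrenal gland and -0.21 in the ganglion, with an interaction of -0.42 ± 0.06. Of 76 mitochondrial ribosomal proteins 13 were called lower, near the 19.9% of all genes, and 3 higher, against 11.6% of all genes. The smallest adjusted p was that of Mrpl4 (-0.94), which was lower in SHR in both tissues. Mrps12 (-0.76), Mrps18a (-0.59) and Mrps2 (-0.41) followed.

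Of 75 cytoplasmic ribosomal proteins, 42 were called lower and none higher, against 19.9% and 11.6% of all genes, with a median of -0.28. The lower calls were 34 after median-of-ratios scaling and 32 after quantile normalization. In the adrenal gland 65 of the 75 were lower in SHR (28.7% of all genes), and in the ganglion none had a strain call. Rpl4 had 499, 528, 486 and 513 FPKM in SHR against 664, 688, 704 and 729 FPKM in WKY adrenal glands, and 347, 344, 339 and 342 FPKM in SHR against 357, 339, 331 and 346 FPKM in WKY ganglia, with an interaction of -0.46 ± 0.05. Its adrenal groups were apart and its ganglion groups overlapped. Rps2 and Rpl5 had interactions of -0.52 and -0.51. The list summed to 27290 to 29490 FPKM in SHR and 33230 to 38590 FPKM in WKY adrenal glands, and to 21060 to 23860 FPKM in SHR and 22370 to 22950 FPKM in WKY ganglia.

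Of 38 matrix genes 19 were called lower and 3 higher, Spp1 and Col18a1 among them, against 19.9% and 11.6% of all genes, with a median of -0.65. The lower calls were 12 without number 2 of SHR in both tissues. Col18a1 had 35.9, 47.2, 40.6 and 42.2 FPKM in SHR and 11.1, 13.03, 13.9 and 13.4 FPKM in WKY adrenal glands, and 14.3, 11.3, 11.9 and 11.99 FPKM in SHR and 11.04, 11.4, 10.5 and 10.9 FPKM in WKY ganglia. Col18a1, a basement membrane collagen, had an interaction of 1.46 ± 0.12. Spp1, osteopontin, had 2926, 2753, 3102 and 3142 FPKM in SHR against 637, 655, 617 and 864 FPKM in WKY adrenal glands, and 3.63 to 12.8 FPKM in SHR against 3.84 to 14.5 FPKM in WKY ganglia, with an interaction of 2.03 ± 0.52.

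Among the genes called lower, the basement membrane collagen Col4a1 averaged 20.1 FPKM in SHR and 35.9 in WKY adrenal glands, and 38.9 in SHR and 40.1 in WKY ganglia (-0.76 ± 0.12), and the fibrillar collagen Col5a1 had an interaction of -1.1 ± 0.17. Timp3, an inhibitor of matrix proteases, was opposite, with 148, 159, 149 and 142 FPKM in SHR against 171, 166, 168 and 176 FPKM in WKY adrenal glands, and 148, 149.8, 139 and 137 FPKM in SHR against 105, 100.2, 94.3 and 107 FPKM in WKY ganglia. Col1a1 (-1.1, adjusted p = 0.029) lost its call, with adjusted p of 0.054 to 0.059, without WKY adrenal gland replicate 3 or 4, WKY ganglion replicate 2 or 3, or SHR ganglion replicate 1 or 4. Col3a1 was not called (-1.05, adjusted p = 0.1) but was without SHR adrenal gland replicate 4, with an adjusted p of 0.016.

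Markers of other cell types had calls that differed in number and direction between the lists, and their part in the results was not tested. Fibroblast markers were called lower in 4 of 14 (Thy1 -2.03, Dcn -1.35, Col1a2 -1.15 and Col1a1), against 19.9% of all genes. The lower calls were 2 without number 2 of SHR in both tissues, 9 without SHR adrenal gland replicate 4 and 10 without WKY ganglion replicate 1. Fibroblast markers summed to 107 to 217 FPKM in SHR and 251 to 337 FPKM in WKY adrenal glands, against 2334 to 2713 FPKM in SHR and 2395 to 2955 FPKM in WKY ganglia. Thy1 is also a marker of neurons, at 1653 ± 68.3 FPKM in SHR and 1801 ± 98.7 FPKM in WKY ganglia. Endothelial markers were called lower in 5 of 22, near the 19.9% of all genes, and higher in none, against 11.6% of all genes. Their median interaction was -0.42, against -0.05 over all genes. In the adrenal gland 17 of the 22 were lower and none higher in SHR, against 28.7% and 20.4% of all genes. The lower interaction calls were 8 without SHR adrenal gland replicate 3 and 3 without WKY ganglion replicate 3. Among the 5 called lower were the receptors Tek (-0.88), Calcrl (-0.83) and Flt1 (-0.51) and the receptor partner Ramp2 (-0.31). Flt1 had adjusted p of 0.056 without WKY ganglion replicate 3 and 0.0502 without SHR ganglion replicate 3. The endothelial markers summed to 219 to 324 FPKM in SHR and 371 to 415 FPKM in WKY adrenal glands, and 145 to 186 FPKM in SHR and 138 to 202 FPKM in WKY ganglia. The junction proteins Pecam1 (-0.37) and Cldn5 (-0.29) were not called in the interaction, although both were lower in SHR adrenal glands (-0.57 and -0.92).

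Smooth muscle and pericyte markers were called lower in 5 of 14, against 19.9% of all genes, with Cspg4 at -1.13, Rgs5 at -1.17, Mylk at -0.73 and Mcam at -0.57. Cspg4 was opposite in sign, and Mcam had an adjusted p of 0.052 without number 3 of SHR in both tissues. Markers of Schwann cells and satellite glia split 3 to 3 among 12, against 11.6% higher and 19.9% lower over all genes. S100b had 32.8, 25.8, 43.5 and 31.9 FPKM in SHR against 19.5, 22.8, 16.7 and 18.4 FPKM in WKY adrenal glands, and 97.4, 85.2, 87.7 and 87.9 FPKM in SHR against 139, 141, 123 and 136 FPKM in WKY ganglia, so it was opposite, while Glul, glutamine synthetase, had 251, 208, 208 and 214 FPKM in SHR against 88.2, 88.4, 79.8 and 76.7 FPKM in WKY adrenal glands and an interaction of 1.21 ± 0.13. The glial cadherin Cdh19 (-1.09) and the sodium channel Scn7a (-1.01) were called lower. Cidea, a lipid droplet protein, was the only adipocyte marker called of 9, against 31.5% of all genes, and was called higher. The list went the other way, with a median interaction of -0.88 and a median strain difference of -0.77 in the adrenal gland. Its mean ran from 2.96 to 4.77 log2 units in SHR and from 3.53 to 5.49 in WKY adrenal libraries. Cidea had 104 ± 19.9 FPKM in SHR and 53.3 ± 10.8 FPKM in WKY adrenal glands (SD, n = 4 each), and passed the filter in the ganglion through WKY libraries alone.

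Leukocyte and interferon genes were lower in SHR adrenal glands. Of 21 leukocyte markers 11 were called lower and none higher, against 19.9% and 11.6% of all genes, with a median of -0.65. In the adrenal gland 18 were lower in SHR, against 28.7% of all genes. Cd74 had 99.7, 79.2, 64.95 and 81.5 FPKM in SHR and 189, 156, 226 and 217 FPKM in WKY adrenal glands, and 119.98, 149.5, 125 and 163 FPKM in SHR and 185, 133, 178 and 124 FPKM in WKY ganglia. Cd74, the invariant chain of class II presentation, had an interaction of -1.12 ± 0.23. C1qa, C1qb and C1qc, complement subunits made by macrophages, had -0.73, -1.01 and -1.01, and Coro1a, an actin regulator of white blood cells, had -1.12. The markers summed to 233 to 347 FPKM in SHR and 507 to 695 FPKM in WKY adrenal glands, and to 328 to 415 FPKM in SHR and 355 to 548 FPKM in WKY ganglia.

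Interferon-response genes were called lower in 18 and higher in 3, Ifit1 among them, of 39, against 19.9% and 11.6% of all genes, with a median of -0.81. The lower calls were 30 without SHR adrenal gland replicate 2, whose mean for the list was 4.97 against 3.92 to 4.0 in the other 3, and 11 without number 3 of SHR in both tissues. Mx1 had 2.42, 6.81, 2.07 and 1.7 FPKM in SHR and 13.8, 12.1, 20.6 and 20.4 FPKM in WKY adrenal glands, and 2.67, 1.9, 4.39 and 2.02 FPKM in SHR and 5.75, 3.76, 4.59 and 4.49 FPKM in WKY ganglia. Mx1, an antiviral GTPase, had an interaction of -1.54 ± 0.42, and replicate 2 was the highest SHR adrenal value and still under every WKY adrenal value. Lgals3bp had 38.5, 93.1, 35.9 and 38.5 FPKM in SHR and 133, 147, 160.4 and 139 FPKM in WKY adrenal glands, and 92.98, 90.3, 96.3 and 91.7 FPKM in SHR and 81, 81.1, 81.04 and 77.7 FPKM in WKY ganglia. Lgals3bp, a secreted glycoprotein, had an interaction of -1.8 ± 0.31. Without SHR adrenal gland replicate 2 the interactions were -1.88 for Mx1 and -2.12 for Lgals3bp.

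Tap1, the peptide transporter of antigen presentation, had -1.01, and Cmpk2, a mitochondrial nucleotide kinase, had -0.99. Psmb8, the immunoproteasome subunit, was called through the ganglion, with 14.8, 16.2, 16.8 and 18.9 FPKM in SHR against 9.91, 7.72, 9.18 and 9.49 FPKM in WKY ganglia and 127, 159, 119 and 124 FPKM in SHR against 127, 134, 157 and 149.6 FPKM in WKY adrenal glands. Ifit1 was listed at 0 to 0.03 FPKM in WKY libraries of both tissues, and had 7.43, 24.1, 10.4 and 6.75 FPKM in SHR adrenal glands and 4.41, 3.07, 6.26 and 2.48 FPKM in SHR ganglia. It passed the filter in both tissues through SHR libraries alone, and without such genes the higher calls of the list were 2 of 37. Its interaction of 1.24 ± 0.41 (adjusted p = 0.033) lost its call, with adjusted p of 0.051 to 0.068, without any one WKY ganglion library, without WKY adrenal gland replicate 2, 3 or 4, or without SHR ganglion replicate 2 or 4. It was also lost under 2 changes of scale, at 0.075 with median-of-ratios scaling and 0.076 with a pseudocount of 0.1.

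Of 24 RT1 histocompatibility genes 12 were called lower and 3 higher, against 19.9% and 11.6% of all genes. Their values are uncertain because reads can be split between the near-identical genes of this complex. RT1-N2 had 3.25, 4.55, 4.43 and 3.57 FPKM in SHR against 32.7, 34.9, 45.5 and 39.4 FPKM in WKY adrenal glands, and 6.1, 3.74, 4.69 and 4.34 FPKM in SHR against 11.1, 8.33, 9.64 and 11.97 FPKM in WKY ganglia, with an interaction of -2.0 ± 0.19. RT1-CE4 was higher in SHR in both tissues, by 2.46 in the adrenal gland and 1.75 in the ganglion. RT1-N3 had an interaction of -1.03 ± 0.18, and RT1-O1 was opposite, at 1.02 in the adrenal gland and -0.70 in the ganglion.

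Chaperones were called lower in 15 and higher in 2 of 32, against 19.9% and 11.6% of all genes. Hspa8 had 174, 179, 143 and 185 FPKM in SHR and 556, 431, 419 and 462 FPKM in WKY adrenal glands, and 951, 976, 1025 and 970.1 FPKM in SHR and 994, 1007, 1038 and 1007 FPKM in WKY ganglia. Hspa8, the constitutive heat shock protein of the cytosol, had an interaction of -1.4 ± 0.12, with no overlap in the adrenal gland. The small heat shock protein Hspb8 had -1.15, and the chaperonin subunits Cct5 and Cct2 had -0.42 and -0.41. Hspa1b, listed under a placeholder symbol, was not called (-0.28, adjusted p = 0.67). Of 23 genes of the unfolded protein response 10 were called lower and 1 higher, against 19.9% and 11.6% of all genes. The lower calls were 6 after median-of-ratios scaling and 5 after quantile normalization, when 1923 and 1817 of all 11552 genes were called lower. The lower calls were also 6 without WKY adrenal gland replicate 2 or SHR ganglion replicate 2 and 5 without number 2 of SHR in both tissues. The 4 with the smallest adjusted p were Pdia6 at -0.59, Dnajc3 at -0.52, Sdf2l1 at -0.76 and Pdia3 at -0.24, which had an adjusted p of 0.061 after quantile normalization. Of 36 proteasome genes 6 were called lower, near the 19.9% of all genes, and 1 higher, against 11.6% of all genes. The proteasome lower calls were 12 without SHR adrenal gland replicate 3 and 10 without WKY adrenal gland replicate 1. Psme1 had an interaction of -0.47, Psme2 of -0.44 and Psmd2 of 0.36.

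Antioxidant and xenobiotic genes were called lower in 18 and higher in 3 of 43, against 19.9% and 11.6% of all genes. Cbr3 had 1.56, 1.19, 3.08 and 2.17 FPKM in SHR and 0, 0, 0 and 0 FPKM in WKY adrenal glands, and 8.08, 8.29, 9.89 and 10.3 FPKM in SHR and 0.05, 0, 0.09 and 0.1 FPKM in WKY ganglia. Cbr3, a carbonyl reductase listed at 0 in WKY adrenal glands, was higher in SHR in both tissues and more so in the ganglion, with an interaction of -1.71 ± 0.20 whose size depends on the pseudocount. It passed the filter in both tissues through SHR libraries alone. The peroxiredoxin Prdx5 (-0.63), the mitochondrial thioredoxin reductase Txnrd2 (-0.60) and the secreted glutathione peroxidase Gpx3 (-0.90) were called lower.

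Clock genes were called lower in 6 and higher in 2 of 18, against 19.9% and 11.6% of all genes. Nr1d1 had 29.5, 18.5, 34.1 and 26.9 FPKM in SHR and 71.1, 113, 102 and 77.97 FPKM in WKY adrenal glands, and 22.8, 13.1, 13.8 and 13.1 FPKM in SHR and 10.3, 11.8, 13.4 and 9.9 FPKM in WKY ganglia. Nr1d1, a repressor of the clock loop, had an interaction of -2.12 ± 0.29, with no overlap in the adrenal gland. Dbp had 74.8, 70.99, 151 and 71.2 FPKM in SHR and 88.1, 155, 135 and 48.98 FPKM in WKY adrenal glands, and 31.5, 17.6, 19.1 and 18.5 FPKM in SHR and 7.61, 7.46, 7.74 and 6.59 FPKM in WKY ganglia. Dbp, a clock output factor, was called through the ganglion, where the groups did not overlap, while the adrenal groups did; its interaction was -1.57 ± 0.47 (adjusted p = 0.021). Ciart (-1.08) was also called through the ganglion, where it passed the filter through SHR libraries alone, and lost its call under quantile normalization, with an adjusted p of 0.057. Rora, an activator of the clock loop, had -0.58, and Csnk1d, a kinase of the Per proteins, had 0.27. Of 12 cell cycle genes 2 were called lower, Aurka (-0.74) and Ccnb1 (-0.58), and 2 higher, among them Mcm6 (0.65), which is near the shares over all genes.

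Of 14 genes from earlier SHR genetics 5 were called lower and 1, Add1, higher, against 19.9% and 11.6% of all genes. Besides Cd36 and Spon1, complement factor Cfb had 4.15, 4.21, 6.23 and 6.12 FPKM in SHR against 9.47, 11.3, 11.4 and 12.3 FPKM in WKY adrenal glands, and 5.3, 7.56, 5 and 4.55 FPKM in SHR against 6.32, 2.77, 1.62 and 2.65 FPKM in WKY ganglia, with an interaction of -1.68 ± 0.34. Gstm1, a glutathione transferase, was higher in SHR in both tissues and more so in the ganglion (0.19 and 0.57), with an interaction of -0.38 ± 0.10 that lost its call under quantile normalization, at an adjusted p of 0.061. Endog, a mitochondrial nuclease, was lower in SHR in both tissues (-1.46 and -0.92), and its interaction of -0.54 ± 0.20 had an adjusted p of 0.051. It was called, with adjusted p of 0.011 to 0.041, without replicate 1 of SHR or of WKY adrenal glands or without replicate 4 of SHR or of WKY ganglia.

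Genes with a strain call of the same sign in both tissues and no interaction call numbered 234, of which 134 were higher and 100 lower in SHR. A missing interaction call does not show that the differences were equal. Ephx2 had 8.36, 8.29, 6.84 and 7.27 FPKM in SHR and 0.35, 0.39, 0.75 and 0.35 FPKM in WKY adrenal glands, and 9.28, 10.4, 10.1 and 10.7 FPKM in SHR and 0.91, 0.8, 1.06 and 1.12 FPKM in WKY ganglia. Ephx2, soluble epoxide hydrolase, had strain differences of 2.58 in the adrenal gland and 2.5 in the ganglion, and an interaction of 0.08 with a 95% interval of -0.21 to 0.37. Penk had 1.86, 2.61, 1.6 and 2.56 FPKM in SHR and 16.6, 16.5, 11.4 and 19.9 FPKM in WKY adrenal glands, and 52.8, 38.7, 29.2 and 37.2 FPKM in SHR and 255, 365, 310.03 and 262 FPKM in WKY ganglia. Penk, the precursor of enkephalins, had strain differences of -2.43 and -2.9 and an interval of -0.09 to 1.03 for its interaction. Ephx2 passed the adrenal filter through SHR libraries alone. In both genes the strains did not overlap in either tissue.

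The other genes named by the same rule were Ndufa10l1 and RT1-CE2, higher in SHR, and Cst3 and Ifi44l, lower in SHR. Ndufa10l1 had 33.3, 28.8, 28.7 and 30.9 FPKM in SHR against 0.23, 0.5, 0.46 and 0.43 FPKM in WKY adrenal glands, and 23.2, 24.8, 22.4 and 22 FPKM in SHR against 0.64, 0, 0 and 0 FPKM in WKY ganglia, a value that is uncertain because reads can be split between it and Ndufa10, and it passed the filter in both tissues through SHR libraries alone. RT1-CE2 had strain differences of 2.25 and 2.49. Cst3, cystatin C, had 89.7, 88.3, 80.3 and 106 FPKM in SHR against 203, 229, 245 and 254 FPKM in WKY adrenal glands, and 531, 507, 460.2 and 506 FPKM in SHR against 1256, 1165, 1093 and 1268 FPKM in WKY ganglia, with an interaction interval of -0.34 to 0.15. Ifi44l, which passed the ganglion filter through WKY libraries alone, had strain differences of -2.48 and -1.98, and its interaction (adjusted p = 0.057) was called, with adjusted p of 0.014 to 0.050, without replicate 2 of SHR or of WKY adrenal glands, SHR ganglion replicate 2, or WKY ganglion replicate 1 or 4.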

How the data were processed

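RNA sequencing libraries of whole adrenal glands and superior cervical ganglia of SHR and WKY rats were compared, 4 libraries in each of 4 groups. Total RNA was extracted with Trizol, libraries were made with the KAPA RNA HyperPrep kit and read on a BGISEQ-500, per the labels' protocols. Rnor_6.0 is the genome build in the submitters' processing notes, which also list DESeq2 1.4.5, Bowtie2 and RSEM 1.3.1 and give no role or order to them. The authors deposited FPKM per gene and library, and per the file headers also log2 ratios and q-values of their own comparisons, which were not used here. The gene annotation is not given in the sources used here.

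The table holds 22864 genes, of which 2358 are blank in every library. A set of 27 symbols that had become dates was restored through the gene identifiers. Genes were kept where 4 or more of 8 libraries reached 1 FPKM in each tissue, 11552 in all. Another 1037 passed in the adrenal gland only and 1435 in the ganglion only. The 251 genes just inside the limit had a median of 1.046 FPKM, against 0.906 FPKM for the 200 genes just outside it. Of the kept genes, 11160 were in RefSeq's gene table for assembly GRCr8, which was used for names and start regions, the deposited table being on another build.

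Values were taken as log2(FPKM + 1), so a fold change understates that of low genes. One limma fit (version 3.58.1, R 4.3.3) with the 4 group means and trended, robust moderation gave the interaction and the strain difference in each tissue, with Benjamini-Hochberg adjustment over all 11552 genes and a threshold of 0.05. The test was tried on simulated data. Intervals are at 95%. Tables were handled with Python 3.11.15, pandas 2.3.3, numpy 2.4.6 and scipy 1.17.1.

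The members and the 28 gene lists were chosen with earlier results of these data known. Named genes were the 10 largest positive and the 10 largest negative interactions among called genes with a mean of at least 5 FPKM in a group and no overlap between the tissues' deviations, the 6 largest opposite differences, up to 4 called members of each list by adjusted p, 3 shared genes in each direction, and a fixed set of genes of the sympathetic, immediate early, clock, interferon, cell type and SHR literature. Placeholder symbols were passed over. A few genes are not reported here. Alternatives changed the pseudocount, filter, scaling, moderation, block and libraries.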

Additional observations from a re-analysis of the deposited data

Results flagged for a closer look

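The strain difference itself differed between the adrenal gland and the ganglion, by limma's interaction test, in 3638 genes, and 128 of these were called with opposite signs in the tissues. Ranked by the smaller of the 2 absolute strain differences, the first 6 opposite genes without a placeholder symbol were the following. Their interactions were 2.84 (Gda), 1.96 (Nudt17), -2.05 (Slc18a1), -2.05 (Spon1), -1.97 (Arpp21) and -1.92 (Cpne9). Nudt17 passed the filter through SHR libraries alone in the adrenal gland and WKY libraries alone in the ganglion.

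Single libraries lay far from the other 3 of their group, by Dixon's criterion at the 95% level, in 40 of the 608 groups of 4 libraries examined for the named genes and for 4 list means. Chance gives about 5% of groups.

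In SHR adrenal glands, replicate 3 was the lowest for Gadd45g (179.7 FPKM), Mrap (181 FPKM), Mrps18a (103 FPKM), Csnk1d (51.7 FPKM), Fmo1 (9.54 FPKM) and the mean of the cholesterol list (4.80 log2 units), and the highest for Dbp (151 FPKM). Replicate 2 was the highest for Lgals3bp (93.1 FPKM), Tap1 (25.7 FPKM) and the mean of the interferon list (4.97 log2 units), and the lowest for Tuba1c (87.5 FPKM). Replicate 1 was the highest for Glul (251 FPKM) and Txnrd2 (50.9 FPKM).

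In WKY adrenal glands, replicate 1 was the lowest for Chga (764.5 FPKM), Ndufb8 (174.7 FPKM), Nr4a1 (12.6 FPKM) and Impad1 (0.07 FPKM) and the highest for Cct5 (222 FPKM). Replicate 2 was the highest for Slc27a6 (67.4 FPKM) and Gap43 (4.77 FPKM) and the lowest for Ifit1, listed at 0 FPKM against 0.03 FPKM in the other 3. The highest value of Ephx2 was that of replicate 3 (0.75 FPKM) and the highest of Nr4a2 that of replicate 4 (3.02 FPKM).

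In SHR ganglia, replicate 1 was the highest for Dbp (31.5 FPKM), Nr1d1 (22.8 FPKM), Mrap (11.8 FPKM) and Prdx5 (140.0 FPKM) and the lowest for Cacna1d (1.6 FPKM). The mean of the interferon list was highest in replicate 3 (3.62 log2 units) and Scn7a in replicate 4 (196.8 FPKM).

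In WKY ganglia, replicate 1 was the lowest for Thy1 (1655 FPKM) and Spr (18.97 FPKM) and the highest for Ndufa10l1, at 0.64 FPKM against 0 FPKM in the other 3. Replicate 2 was the highest for Spon1 (1.4 FPKM). Replicate 3 was the lowest for Pdia3 (217 FPKM), RT1-O1 (3.5 FPKM) and Rora (1.1 FPKM). Replicate 4 was the lowest for Lgals3bp (77.7 FPKM) and Tm7sf2 (21.2 FPKM) and the highest for Hspb8 (137 FPKM).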

How the results depend on the processing

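The number of genes with an interaction call was 3588 with a pseudocount of 0.1, 3616 with 0.5, 3544 with median-of-ratios scaling, 3579 with quantile normalization, 3589 without trended and robust moderation and 3556 with all 24 libraries of the series in the fit, against 3638. With no filter on low values it was 4751 of 20091 genes, and the ganglion then had 1269 strain calls. With a mean of at least 5 FPKM in each tissue, where 7624 genes were tested, the calls were 2412 in the interaction, 1430 of them lower, 3768 in the adrenal gland and 412 in the ganglion, with 71 opposite and 150 shared genes. With each tissue fitted alone, an alternative chosen after seeing the data like the weights by tissue (3576 interaction calls), the ganglion had 1095 strain calls and 195 genes were opposite. Left-out single libraries gave 3124 to 3906 interaction calls, 1146 to 1422 higher and 1971 to 2484 lower, 5071 to 5699 calls in the adrenal gland, 463 to 789 in the ganglion, 80 to 146 opposite and 179 to 272 shared genes. Without number 2 of SHR in both tissues there were 3221 interaction calls, and without number 3 of SHR 3595.

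Of the 133 named genes with a call, 118 kept it with the same sign under every alternative in which they were tested. Among alternatives that used all 16 libraries 123 did so, and none changed sign. Genes with a mean under 5 FPKM in a tissue were not tested with that filter. Many named genes were chosen for a small adjusted p or a large interaction, so these counts give no share for all called genes. Counts of 3 or fewer calls in one direction of a list moved by more than 1.5 times in several lists when single libraries were left out. Some larger counts did too. Interferon lower calls rose from 18 to 30 without SHR adrenal gland replicate 2. Without SHR adrenal gland replicate 3, proteasome lower calls rose from 6 to 12 and endothelial ones from 5 to 8. Lower calls of the unfolded protein response fell without some libraries, as given with that list.

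The groups share replicate numbers 1 to 4. Deviations from the group means of an adrenal and a ganglion library with the same strain and number correlated at -0.197 to -0.017, and with another number at -0.197 to 0.186, and in 0 of 8 cases was the best match the own number. The labels do not say whether a number marks the same rat and these values do not settle it, so the libraries were treated as unpaired. With the number as a fixed replicate block there were 3139 interaction calls and with a random block 3551 (consensus correlation -0.0293). The exact permutation test of single paired values was not run because neither the labels nor this comparison pairs the libraries. Depth is unknown, so no counting error could be given.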
